A study of Mus musculus with 28 samples.

Results

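Male mouse livers that had received vehicle alone under a low corn oil regimen were compared at a later and an earlier stage of the same study. The comparison set 4 vehicle livers taken after 4 to 8 weeks against 3 vehicle livers taken after 2 weeks, 7 of the 28 libraries of the series. Of 24197 genes in the table, 10615 reached at least 1 FPKM (fragments per kilobase of gene, scaled to library size) in either group and were compared by the log2 ratio of their FPKM, with 0.1 FPKM added to both. The series as a whole measured nuclear RNA in livers of mice given TCPOBOP, an agonist of the nuclear receptor CAR, or its vehicle.

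All mice were of the outbred stock Crl:CD1(ICR). The low corn oil regimen injected corn oil holding 10% DMSO into the abdomen at 4 µl/g body weight. The 2-week mice were 9 to 10 weeks old. Of the later mice, 2 were 11 to 12 weeks old and 2 were 15 to 16 weeks old. Another group of male vehicle mice, 3 animals of 15 to 16 weeks, had been injected with 20 µl/g of corn oil holding 2% DMSO over 8 weeks and is given beside both as the high corn oil group. No mouse in these 3 groups received TCPOBOP, and each library came from 1 liver. The 2-week and high corn oil libraries carry the set code G184, and the 4 to 8 week libraries carry G186. Age, time on vehicle and set code therefore differ together between the low corn oil groups and cannot be told apart. Each FPKM below is the authors' pooled value for a group, with no value per library, so the differences have no replicate check, no error and no test, and the sequencing depth behind them is unknown.

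The liver secretes most plasma proteins and carries the main load of lipid, glucose and foreign-compound metabolism. Many of its genes follow a molecular clock, in which the activators Arntl and Clock drive repressors of the Per and Cry families, and clock-controlled factors such as Dbp pass the rhythm on to enzymes. Growth hormone pulses keep a male pattern of secreted proteins and cytochromes P450. Nuclear RNA lies closer to ongoing transcription than whole-cell RNA and holds unspliced and nuclear-retained transcripts.

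Most genes stood at similar levels in the low corn oil groups, and those that did not were more often higher than lower at 4 to 8 weeks. Of the 10615 genes, 370 (3.49%) were at least 2-fold higher and 223 (2.10%) at least 2-fold lower, while 94.4% lay within 2-fold. The median log2 difference was 0.05, with 5th and 95th percentiles of -0.78 and 0.88. Many genes lay near the limit: between 1.8-fold and 2.2-fold, 205 genes were past the limit and 406 fell short of it. Against the 2-week group, the high corn oil group had 343 of 10515 genes (3.26%) at least 2-fold higher and 107 (1.02%) lower. The 4 to 8 week group over the high corn oil group gave 221 (2.08%) higher and 213 (2.00%) lower of 10631. These 3 contrasts share groups with one another. The high corn oil value lay between the low corn oil values in 43.2% of all genes compared, in 71.6% of the 370 higher genes and in 78.5% of the 223 lower genes, which are the shares to read such counts against below.

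**Figure D1:**
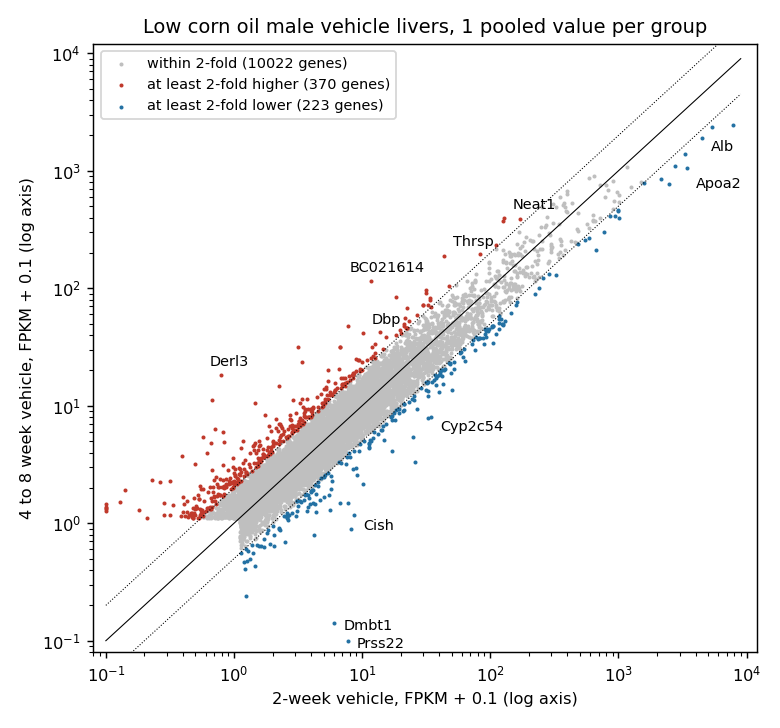
Pooled FPKM + 0.1 of 10615 genes in the 2-week (horizontal) and 4 to 8 week (vertical) low corn oil male vehicle groups, on log axes, with equality as a solid line and 2-fold limits dotted. The 370 higher genes (red) lie mostly at low levels, and at the right-hand end the most abundant transcripts, among them Alb and Apoa2, lie below the lower limit.

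The direction depended on how abundant a gene was. Small RNAs, which are short and can lie inside longer host genes, are left out of these level classes. Among the 2184 other genes with a mean under 2 FPKM over the 3 male vehicle groups, 82 were at least 2-fold higher and 29 lower. Among 213 genes of at least 100 FPKM, 5 were higher and 26 (12.2%) lower, with a median of -0.35, and the high corn oil group had a median of -0.20 over the 2-week group for the same genes. The 20 most abundant genes held 23.6% of all FPKM at 2 weeks, 17.9% in the high corn oil group and 13.6% at 4 to 8 weeks. FPKM summed to 191251, 176153 and 157206 in the same order, and 157206 was the lowest sum of the 8 groups in the series. Rescaling the low corn oil groups to 1 common sum was done by adding 0.28 to every log2 difference, computed with the pseudocount already in place. This gave 936 genes higher (8.82%) and 80 lower (0.75%) in place of 370 and 223. The median of all genes became 0.33. Rescaled list counts and medians below are to be read against these values. Leaving the 27 most abundant genes out of that sum gave 487 higher and 157 lower.

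**Figure D2:**
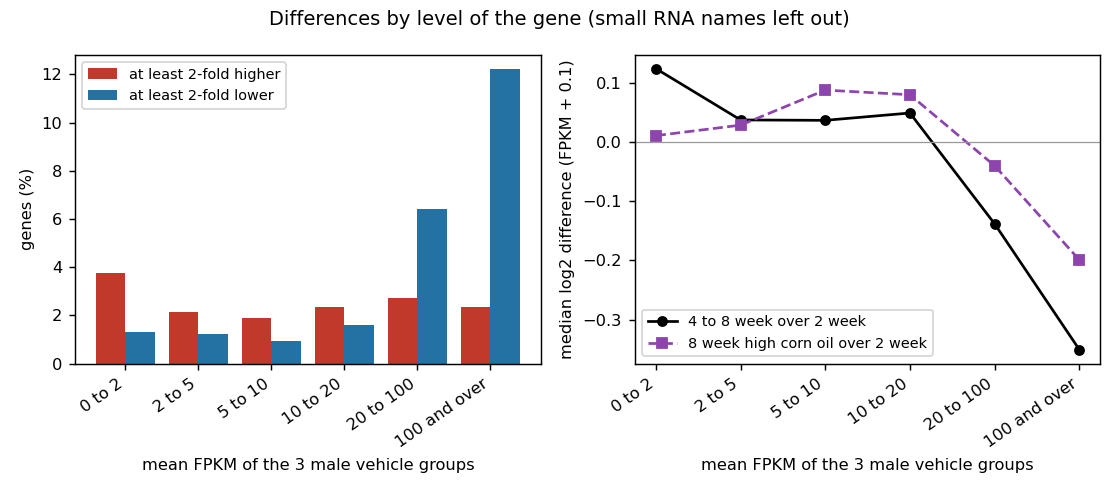
Left, the percentage of genes at least 2-fold higher (red) or lower (blue) at 4 to 8 weeks over 2 weeks, by mean FPKM of the 3 male vehicle groups. Right, the median log2 difference in the same classes for the 4 to 8 week (black) and high corn oil (purple) groups over the 2-week group, with -0.35 and -0.20 in the class of 100 FPKM and over.

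Several of the most abundant hepatocyte transcripts stood lower. Alb, which encodes serum albumin, stood at 7834 FPKM at 2 weeks, 4555 in the high corn oil group and 2433 at 4 to 8 weeks, a log2 difference of -1.69 between the low corn oil groups. Its share of all FPKM was 4.10%, 2.59% and 1.55%. Apoa2, a protein of high-density lipoprotein, stood at 3410, 2255 and 1051 FPKM in the same order, and Trf, the plasma iron carrier transferrin, at 2779, 1730 and 1103 FPKM. All 3 were highest at 2 weeks and lowest at 4 to 8 weeks. All 12 compared genes with apolipoprotein A, B, C, E, H or M names, a group picked after its values were seen, stood below their 2-week level. Of these, 5 were at least 2-fold lower, or 3 after rescaling to a common sum, and the median of the 12 was -0.86. Outside the 12, Apof and Apon also stood lower. Apol7a, at 22.8 FPKM at 2 weeks and 30.1 at 4 to 8 weeks, Apol9a and Apol9b stood above their 2-week level. Apoh, a phospholipid-binding plasma protein, was at 673 FPKM at 2 weeks and 212 at 4 to 8 weeks, whereas Apoc2, the activator of lipoprotein lipase, was at 92.4 and 91.0.

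Among 19 hepatocyte identity genes, 6 were at least 2-fold lower and none higher, with a median of -0.74. After rescaling to a common sum 3 were lower and 2 higher. The 6 encode secreted plasma proteins: Alb, Apoa1, Apoa2, Trf, Ttr and Serpina1c. The transcription factor genes of the same list lay within 2-fold on both sides, among them Onecut1 at 5.06 and 2.98 FPKM and Prox1 at 6.39 and 11.1 FPKM at 2 and at 4 to 8 weeks. Hnf4a was at 42.1 and 47.5 FPKM and Cebpa at 46.8 and 47.9 FPKM.

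Other secreted proteins stood lower as well. Of 22 liver hormones and carriers, 6 were at least 2-fold lower and none higher, with a median of -0.84, but after rescaling to a common sum 2 were lower and 1 higher. Igf1, the growth hormone-dependent growth factor, was at 32.3 FPKM at 2 weeks, 24.6 in the high corn oil group and 12.0 at 4 to 8 weeks. Fetub, a liver-derived protease inhibitor, was at 111, 85.6 and 40.8 FPKM, and Agt, the precursor of angiotensin, at 87.1, 52.8 and 37.5 FPKM. Of 26 complement and coagulation genes, 6 were lower and 1 higher, with a median of -0.67, and after rescaling 1 was lower and 1 higher. Cfi, complement factor I, was at 89.8 FPKM at 2 weeks and 33.7 at 4 to 8 weeks, while C6 of the membrane attack complex was the higher gene, at 34.5 and 69.6 FPKM. Of 15 Serpina and Serpinb genes, 4 were lower and 1 higher, with a median of -0.60, and after rescaling 1 was lower and 1 higher. They include Serpina7, the thyroxine-binding globulin, at 6.60 and 1.38 FPKM, and Serpina1e, an alpha-1-antitrypsin paralog, at 1.45 and 4.41 FPKM. Reads of paralogs such as the Serpina1 genes may have been split between copies by the counting.

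Genes of 2 housekeeping complexes stood lower, though mostly by less than 2-fold. All 30 cytosolic ribosomal protein genes stood below their 2-week level, none by 2-fold, with a median of -0.60 or -0.32 after rescaling to a common sum. Rpl7 was at 71.2, 50.5 and 38 FPKM in the 2-week, high corn oil and 4 to 8 week groups. All 30 nuclear-encoded respiratory chain genes were also below their 2-week level, 5 of them by at least 2-fold, with a median of -0.68. After rescaling the median was -0.40 and none was 2-fold lower. Ndufa4, a subunit of cytochrome oxidase, was at 90.6, 64.4 and 40.6 FPKM. The high corn oil value lay between the low corn oil values in 27 of the 30 ribosomal and 24 of the 30 respiratory chain genes.

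**Figure D3:**
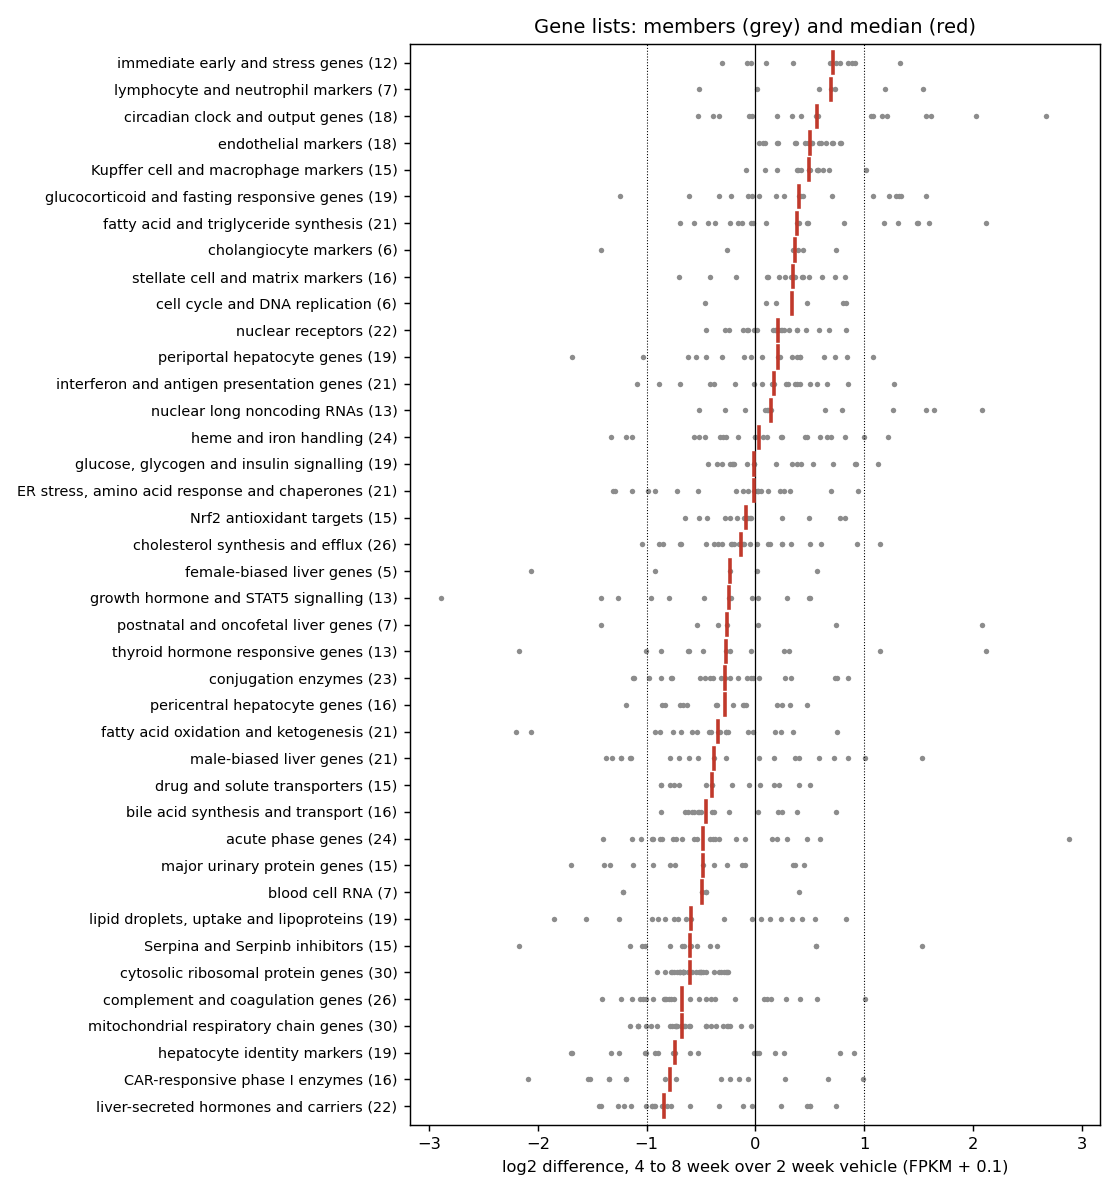
Log2 difference between the 4 to 8 week and 2-week groups for the compared members (grey) of each gene list, with the list median in red and the number of members in parentheses. Dotted lines mark 2-fold. Liver hormones and carriers (-0.84) and CAR-responsive phase I enzymes (-0.78) are at the bottom, and immediate early genes (0.71) at the top.

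Markers of other liver cells leaned the other way. Endothelial markers stood above their 2-week level in 18 of 18 genes, none by 2-fold (2 after rescaling), with a median of 0.50 and a summed level of 203 FPKM at 2 weeks, 195 in the high corn oil group and 289 at 4 to 8 weeks. Eng, a TGF-beta coreceptor of endothelium, was at 25.2, 22.5 and 43.5 FPKM. Kupffer cell and macrophage markers summed to 159, 218 and 219 FPKM, with 1 of 15 genes at least 2-fold higher, Spic, a transcription factor of iron-recycling macrophages, at 1.28 and 2.69 FPKM. Stellate cell and matrix markers summed to 147, 124 and 173 FPKM with none of 16 past 2-fold (2 higher after rescaling). The sum of the lymphocyte and neutrophil markers was 10.3, 19.7 and 16.1 FPKM, and 2 of 7 were higher, Cd3e of T cells and S100a9 of neutrophils. Cholangiocyte markers summed to 88.0, 77.1 and 107 FPKM, most of it from Aqp1 at 62.6, 49.9 and 79.7 FPKM. Of the 6 compared, 4 stood above their 2-week level and 2 below. Krt19, a bile duct keratin, was at least 2-fold lower, at 1.17 FPKM at 2 weeks and 0.376 at 4 to 8 weeks. Hepatocyte markers, by contrast, summed to 21636, 14263 and 8286 FPKM. Most of this sum came from the abundant secreted-protein transcripts Alb, Apoa1 and Apoa2, so it does not describe the list as a whole. Of its 19 genes, 13 stood below their 2-week level and 6 above it, among them the transcription factor gene Prox1. Globin and other blood cell RNA summed to 91.3, 92.5 and 73.7 FPKM, and the pancreas, fat, muscle and gallbladder markers to 12.3, 12.8 and 10.2 FPKM, with Prss2, Prss3, Amy2a5, Retn, Ckm and Muc5b at 0. The part of cell makeup in the other differences was not tested, and in bulk nuclei fewer cells of a type and less RNA per cell cannot be told apart.

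Xenobiotic-metabolising genes in neighbouring clusters stood lower in several families. The Cyp2c family of cytochromes P450, looked at after its values were seen, had 10 of 11 compared members at least 2-fold lower and none higher, with a median of -1.52 and a range of -2.09 to -0.93. After rescaling to a common sum 8 were lower. Cyp2c29, the most abundant of those 10 at 2 weeks, stood at 328 FPKM at 2 weeks, 175 in the high corn oil group and 128 at 4 to 8 weeks. For Cyp2c54 the levels were 34.3, 14.8 and 7.99 FPKM, and for Cyp2c67 they were 106, 70.5 and 33.9 FPKM. The high corn oil value lay between the low corn oil values in 8 of the 11 genes, a share near that of all lower genes. On mouse chromosome 19, 2 uninterrupted runs of compared genes were lower, one of Cyp2c29, Cyp2c39, Cyp2c38, Cyp2c67 and Cyp2c68 and the other of Cyp2c37, Cyp2c54, Cyp2c50 and Cyp2c70. The members are near-identical in parts of their sequence, so how the counting divided reads among them is uncertain.

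The Ces1 carboxylesterases, enzymes that cleave esters of drugs and lipids, had 4 of 6 members at least 2-fold lower, or 2 after rescaling, and a median of -1.19. Ces1g was at 32.8, 8.75 and 7.74 FPKM and Ces1d at 126, 59.3 and 49.2 FPKM in the 2-week, high corn oil and 4 to 8 week groups, so for both the high corn oil level was near the 4 to 8 week level. The Ugt2 glucuronosyltransferases had 4 of 7 lower, or 3 after rescaling, and a median of -1.23. Ugt2b5 was at 222, 110 and 89.6 FPKM and Ugt2b1 at 126, 65.1 and 48.7 FPKM, and in all 7 the high corn oil value lay between the low corn oil values. Not every enzyme family leaned this way. None of 8 Cyp2d genes was 2-fold lower, with a median of 0.22, and Cyp2d12 was higher, at 0.554 and 1.27 FPKM. The 18 glutathione transferase (Gst) genes had 1 lower, Gstt1, at 36.4 and 16.6 FPKM, and a median of -0.20. After rescaling to a common sum their median was 0.08, beside 0.33 for all genes, and 3 were higher and none lower. Both families were picked after their values were seen.

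**Figure D4:**
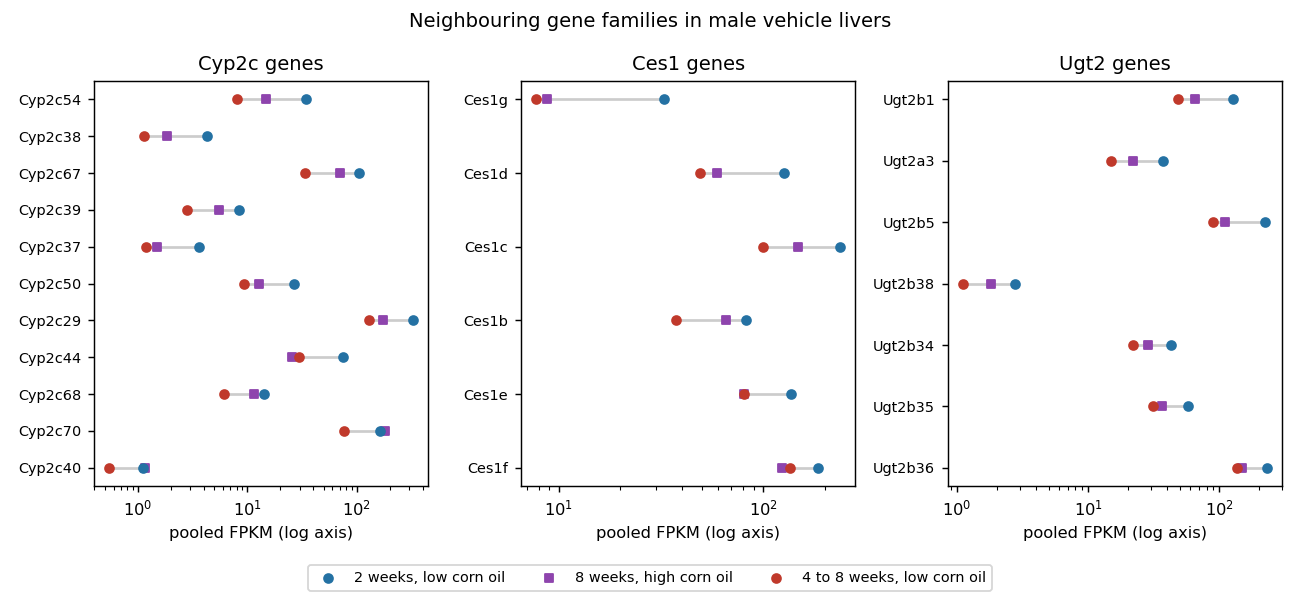
Pooled FPKM (log axis) of the compared Cyp2c, Ces1 and Ugt2 genes in the 2-week (blue), high corn oil (purple square) and 4 to 8 week (red) male vehicle groups. Red lies left of blue in every gene, as for Cyp2c54 with 34.3 and 7.99 FPKM.

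Several of these genes are responsive to CAR, while the receptor and its prototypical target lay within 2-fold. Nr1i3, which encodes CAR, was at 147 FPKM at 2 weeks, 115 in the high corn oil group and 171 at 4 to 8 weeks, and Cyp2b10, the classical CAR target, at 2.41, 1.72 and 2.29 FPKM. Of 16 CAR-responsive phase I enzymes, 7 were at least 2-fold lower and none higher, with a median of -0.78, and 5 were lower and 1 higher after rescaling. Cyp3a11 was at 771, 354 and 303 FPKM, while its relative Cyp3a25 was at 722, 442 and 761 FPKM. Of 4 compared Cyp3a genes, a family picked after its values were seen, 1 was lower and none higher. Their median was -0.09, or 0.19 after rescaling. Alas1, the first enzyme of heme synthesis, was at 25.4, 91.6 and 11.1 FPKM, highest in the high corn oil group. Each vehicle group is the denominator of an authors' TCPOBOP comparison, so vehicle and TCPOBOP levels are given side by side. Cyp2c37 stood at 3.61 FPKM in vehicle and 58.6 in TCPOBOP males at 2 weeks, and at 1.17 and 49.6 FPKM in the later low corn oil groups. The fold in the authors' deposited table was 15.3 at 2 weeks (edgeR adjusted p = 1.96e-38) and 39.1 at 8 weeks (adjusted p = 2.72e-63). Cyp2c54 stood at 34.3 and 371 FPKM at 2 weeks and at 7.99 and 224 FPKM later, with folds of 10.2 and 26.2 in the authors' deposited table. In both genes the later fold was larger while the TCPOBOP level was lower. Alas1 had a fold of 1.77 (adjusted p = 0.665) at 2 weeks and 6.2 (adjusted p = 3.00e-26) at 8 weeks in the authors' deposited table, with TCPOBOP levels of 47.1 and 73.5 FPKM.

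Male-pattern genes were mixed. Of 21 male-biased liver genes, 6 were at least 2-fold lower and 2 higher, with a median of -0.38, but after rescaling to a common sum 2 were lower and 4 higher. Ugt2b1 (above) and C8b, a complement component at 60.9 and 25.8 FPKM, were among the lower ones, and Serpina1e and C6 were the higher ones. Of 15 major urinary protein genes, whose products carry pheromones in male urine, 4 were lower and none higher, with a median of -0.49. Mup10 was at 2493, 1278 and 771 FPKM and Mup3 at 2164, 1151 and 854 FPKM in the 2-week, high corn oil and 4 to 8 week groups, and these genes also share near-identical sequence. The summed Mup level was 8814 FPKM at 2 weeks, 4701 in the high corn oil group and 4227 at 4 to 8 weeks, against 1017 FPKM in vehicle females. The female-biased list reached 1 FPKM in only 5 members, of which Cyp4a10 was lower, and their median of -0.24 turned to 0.05 after rescaling. Cyp4a10 was at 17 FPKM in 2-week vehicle males and 13.8 in vehicle females, so it was not female-biased in these vehicle livers. Xist was at most 0.233 FPKM in the male groups, and the Y-linked gene Eif2s3y was at 30.1 and 28.3 FPKM.

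Growth hormone signalling genes differed most at Cish. This gene, an inhibitor of cytokine signalling that STAT5 induces, stood at 8.57 FPKM at 2 weeks, 32.3 in the high corn oil group and 1.07 at 4 to 8 weeks. Igf1 (above) and Igfbp2, an insulin-like growth factor carrier at 91.7 and 38 FPKM, were the other members at least 2-fold lower among 13. Ghr, the growth hormone receptor, was at 66.7 and 48.1 FPKM, and Stat5b at 8.40 and 11.8 FPKM. The list median was -0.24 and turned to 0.04 after rescaling, beside 0.33 for all genes, with 2 genes still lower. In the authors' deposited table Cish had a fold of 13.2 (adjusted p = 7.92e-13) for TCPOBOP over the 4 to 8 week vehicle, with a TCPOBOP level of 15.3 FPKM.

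Several clock output and repressor genes stood higher at 4 to 8 weeks. All mice were killed in late morning per the labels, and the part of the hour of death was not tested. Of 18 compared clock genes, 8 were at least 2-fold higher and none lower, beside 3.49% of all genes, and their median was 0.57. The count was also 8 after rescaling to a common sum. They are Ciart, Dbp, Per1, Per2, Per3, Cry2, Nr1d1 and Ccrn4l. The upstream sequences of the member with the largest difference, Ciart, of the repressor Per1 and of the output factor Dbp are shown here, since the E-box CACGTG is the element that Arntl and Clock bind. They are the 250 bases before the annotated start, from the RefSeq promoter table of build GRCm38.p6, at chr3:95882229-95882478 on the minus strand (Ciart), chr11:69098699-69098948 on the plus strand (Per1, the upstream one of 2 entries) and chr7:45704997-45705246 on the plus strand (Dbp). Capitals mark the E-box.
Ciart: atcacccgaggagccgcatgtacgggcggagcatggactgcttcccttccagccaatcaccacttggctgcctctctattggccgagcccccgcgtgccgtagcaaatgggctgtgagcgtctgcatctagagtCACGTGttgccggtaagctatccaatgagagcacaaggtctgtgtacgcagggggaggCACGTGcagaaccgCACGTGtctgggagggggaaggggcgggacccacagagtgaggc
Per1: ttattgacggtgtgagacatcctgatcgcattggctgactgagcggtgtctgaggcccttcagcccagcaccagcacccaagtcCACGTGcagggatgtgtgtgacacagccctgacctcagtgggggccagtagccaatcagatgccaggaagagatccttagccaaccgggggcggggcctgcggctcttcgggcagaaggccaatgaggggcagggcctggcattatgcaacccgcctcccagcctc
Dbp: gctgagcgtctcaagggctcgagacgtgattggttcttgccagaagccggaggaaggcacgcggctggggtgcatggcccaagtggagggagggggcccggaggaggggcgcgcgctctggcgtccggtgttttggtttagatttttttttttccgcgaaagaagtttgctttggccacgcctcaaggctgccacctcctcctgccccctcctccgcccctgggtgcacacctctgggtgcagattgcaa
Ciart held 3 copies, whose first bases lie 116, 58 and 44 bases before the start, Per1 held 1, at 166 bases, and Dbp none in this window. The motif is its own reverse complement, so both strands are covered by 1 search. Promoters were found for 7 of the 8 higher clock genes and for 8 of the other compared clock genes, and 2 of the 7 (28.6%) and 2 of the 8 (25%, Cry1 and Tef) held the motif. Of 27025 genes in the table, 1854 (6.86%) held it. No sequence is given for Per2 and Bhlhe40.

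Among the repressors, Per3 was at 2.61 FPKM at 2 weeks, 4.41 in the high corn oil group and 8.21 at 4 to 8 weeks. Per2 stood at 3.93, 8.29 and 9.25 FPKM and Per1 at 0.585, 1.72 and 1.93 FPKM, so for both the high corn oil level was near the 4 to 8 week level. Ciart, a repressor of the Arntl and Clock complex, was at 0.517, 1.77 and 3.83 FPKM. Cry2 was at 5.31, 4.81 and 11.3 FPKM and was the only one of the 8 genes whose high corn oil value lay outside the low corn oil values. The heme-binding repressor Nr1d1 (Rev-erb alpha) was at 19.8, 26.9 and 41.4 FPKM, while its paralog Nr1d2 was at 16.2, 11.9 and 11.2 FPKM. Dbp, a transcription factor of rhythmic liver enzymes, was at 10.1, 18.8 and 41.4 FPKM. Across the 8 groups of the series Dbp ranged from 8.81 FPKM in vehicle females to 55.9 in TCPOBOP females, and the later low corn oil TCPOBOP males, also of set G186, were at 42.3 FPKM. In the authors' deposited table the TCPOBOP fold of Dbp was 2.88 at 2 weeks (adjusted p = 0.030) and -1.04 at 8 weeks in low corn oil males (adjusted p = 1).

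The activators were near level. Arntl was at 4.16, 3.95 and 4.78 FPKM and Clock at 4.53, 2.62 and 3.57 FPKM in the 2-week, high corn oil and 4 to 8 week groups. Rora, which activates Arntl, was at 3.01, 1.90 and 2.27 FPKM. Tef, a relative of Dbp, was at 18.4, 21.3 and 27.1 FPKM, and Hlf, another relative, at 2.97, 1.84 and 2.84 FPKM. The clock list had a median of 0.11 for the high corn oil over the 2-week group and of 0.43 for the 4 to 8 week over the high corn oil group, with groups shared between these contrasts.

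**Figure D5:**
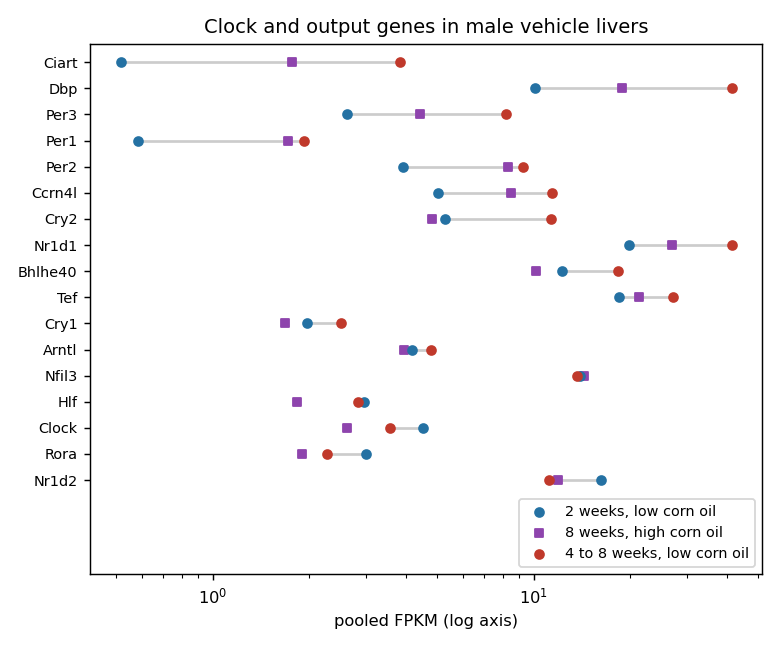
Pooled FPKM (log axis) of clock and output genes in the 2-week (blue), high corn oil (purple square) and 4 to 8 week (red) male vehicle groups, in order of the log2 difference. Ciart and Dbp at the top differ most, and Arntl, Nfil3 and Hlf show little difference between the low corn oil groups.

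Some genes of fat synthesis stood higher and some microsomal fatty acid hydroxylases lower. Of 21 fatty acid and triglyceride synthesis genes, 6 were at least 2-fold higher and none lower, 9 lay below their 2-week level, and the median was 0.38. Thrsp, a regulator of lipogenesis, stood at 43.5 FPKM at 2 weeks, 107 in the high corn oil group and 190 at 4 to 8 weeks. Fasn, the fatty acid synthase, was at 22.4, 29.9 and 67.8 FPKM, and Acacb, an acetyl-CoA carboxylase, at 5.09, 13.2 and 14.4 FPKM. Mlxipl, which encodes the carbohydrate-responsive factor ChREBP, was at 171, 257 and 387 FPKM, and Gpam and Pnpla3 were the other 2 genes. The elongase Elovl5, at 85.2 and 52.5 FPKM, and the desaturase Fads1, at 62.7 and 42.4 FPKM, lay on the other side.

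Among 21 fatty acid oxidation genes, 2 were at least 2-fold lower and none higher, with a median of -0.34. Both are targets of PPAR alpha: Cyp4a14 was at 25, 6.08 and 5.34 FPKM and Cyp4a10 at 17, 4.29 and 3.99 FPKM, so the high corn oil and 4 to 8 week groups stood close together. Of the 5 compared Cyp4a genes, a family picked after its values were seen, 3 were at least 2-fold lower, or 2 lower and 1 higher after rescaling. Cyp4a32 was at 20.3, 24.6 and 39.6 FPKM and Cyp4a12b at 10.3, 6.15 and 7.89 FPKM. Cpt1a, the gate of mitochondrial import, was at 20.2 and 19.8 FPKM, and Ppara itself at 16.1 and 15.4 FPKM at 2 and at 4 to 8 weeks. Of 19 genes for lipid droplets, uptake and lipoproteins, 3 were lower and none higher, with a median of -0.59, and 2 were lower and 1 higher after rescaling. They are Apoa1 and 2 genes of triglyceride uptake, Vldlr at 2.40, 0.497 and 0.589 FPKM and Lpl, lipoprotein lipase, at 5.66, 1.82 and 1.86 FPKM. G0s2, an inhibitor of fat breakdown, was at 35.3 and 62.9 FPKM.

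Sterol, bile acid and glucose genes mostly lay within 2-fold. Of 26 cholesterol genes, Idi1 was lower, at 16.9 and 8.14 FPKM, and Lss, lanosterol synthase, higher, at 3.93 and 8.79 FPKM, and after rescaling 2 were higher, none was lower and the median of -0.13 turned to 0.15. None of 16 bile acid genes was past 2-fold, with a median of -0.45. Cyp7a1, which starts and limits the classical route of bile acid synthesis, was at 10.6, 8.66 and 5.78 FPKM. Of 19 glucose genes, Pfkfb1, a bifunctional enzyme of glycolytic control, was higher, at 5.93, 13.1 and 13 FPKM, and after rescaling 4 were higher and the median of -0.01 turned to 0.27. Among 19 periportal genes Sds, serine dehydratase, was higher at 110 and 233 FPKM, while Otc of the urea cycle and Alb were lower, and after rescaling 3 were higher and 1 lower. Of 16 pericentral genes Cyp2e1 was lower, at 933, 627 and 410 FPKM, and after rescaling none was lower and the median of -0.28 turned to 0.00. The rescaled median of all genes was 0.33.

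Stress-responsive genes leaned higher, while cytosolic heat shock genes stood lower. Of 19 glucocorticoid and fasting responsive genes, 6 were at least 2-fold higher and 1 lower, with a median of 0.40, but with a pseudocount of 1 FPKM only 2 were higher. Cdkn1a, the cell cycle inhibitor p21, was at 0.809, 1.47 and 2.2 FPKM in the 2-week, high corn oil and 4 to 8 week groups, Ddit4 at 1.21, 2.22 and 3.10 FPKM, and the glucocorticoid-induced Zbtb16 at 0.561, 1.15 and 1.55 FPKM. Fkbp5, a classical glucocorticoid target, was at 2.26 and 2.15 FPKM, and Gadd45g was the lower gene, at 17.9, 64.4 and 7.48 FPKM. Of 12 immediate early genes, Nr4a1 was higher, at 0.763 and 2.07 FPKM, and the median was 0.71. After rescaling to a common sum 6 of the 12 were higher. In the ER stress and chaperone list of 21 genes, the heat shock genes Hspa1a, Hspa1b and Hsp90aa1 were lower and none was higher, and after rescaling 2 were lower and 1 higher and the median of -0.01 turned to 0.27. Hsp90aa1 was at 35.2, 18.5 and 15.9 FPKM, while Creld2, an ER stress gene, was at 14.2, 73.1 and 27.3 FPKM.

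The inflammation lists had no common direction. Acute phase genes leaned lower, with 18 of 24 below their 2-week level and 6 above. Interferon and antigen presentation genes stood above the 2-week level in 14 of 21 and below it in 7. Of 24 acute phase genes, 3 were at least 2-fold lower and 1 higher, with a median of -0.48, and 1 was lower and 1 higher after rescaling. Apcs, serum amyloid P, was at 63.2, 111 and 23.9 FPKM and Crp at 59.2, 43.4 and 28.6 FPKM. Orm3, an orosomucoid gene with close paralogs, was the higher one, at 0.559, 7.32 and 4.77 FPKM. Cxcl1, a neutrophil-attracting chemokine, was at 7.69, 49.7 and 47.3 FPKM. Slpi, an inhibitor of neutrophil proteases, was at 4.13, 10.5 and 0.688 FPKM. Of 21 interferon and antigen presentation genes, Oasl1 was higher, at 0.985 and 2.53 FPKM, and H2-K1 of class I lower, at 92.3, 32.9 and 43.4 FPKM, with a median of 0.17. After rescaling 2 were higher and none lower.

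Noncoding RNAs stood higher more often than protein-coding genes. Of 197 long noncoding RNAs, by the biotype of the matched RefSeq entry, 30 (15.2%) were at least 2-fold higher and 2 lower, against 209 and 193 of 9906 protein-coding genes. Names starting with Mir or Snor, small RNAs that polyadenylated selection captures only through longer transcripts, gave 113 of 380 (29.7%) higher and 20 (5.26%) lower. Without these names 257 higher and 203 lower genes remained. Neat1, the scaffold of nuclear paraspeckles, stood at 127 FPKM at 2 weeks, 359 in the high corn oil group and 397 at 4 to 8 weeks, whereas Malat1, the neighbouring nuclear RNA, was at 176, 256 and 187 FPKM. Of 13 listed nuclear RNAs 4 were higher, the others being Meg3, Rian and Snhg11. Meg3 and Rian are maternally expressed RNAs of 1 imprinted domain and formed, with AF357359, a run of higher neighbours on chromosome 12. Meg3 was at 1.08, 5.11 and 4.89 FPKM and Rian at 1.74, 6.19 and 4.32 FPKM. Meg3 had a TCPOBOP fold of 2.31 at 2 weeks (adjusted p = 0.183) and -6.37 at 8 weeks in low corn oil males (adjusted p = 7.35e-07) in the authors' deposited table, with TCPOBOP levels of 2.59 and 0.841 FPKM.

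Some single genes outside these lists also differed. Derl3, a component of ER-associated protein degradation, stood at 0.687 FPKM at 2 weeks, 6.47 in the high corn oil group and 18.2 at 4 to 8 weeks, a log2 difference of 4.54. All 5 other groups were at or below 1.50 FPKM, and the authors' deposited table gave it a TCPOBOP fold of -29.1 (adjusted p = 3.03e-08) against the 4 to 8 week vehicle. G530011O06Rik was at 0.572, 0.552 and 11.1 FPKM, and only the 4 to 8 week vehicle stood above 1 FPKM among the 8 groups. Its TCPOBOP fold at 8 weeks was -23.3 in the authors' deposited table (adjusted p = 0.00453). C4a, the sex-limited complement protein of male mice, was at 31.2, 87.5 and 96.1 FPKM, against 1.54 in vehicle females. In the authors' deposited table C4a had a TCPOBOP fold of -1.46 (adjusted p = 0.983) at 2 weeks and -5.71 (adjusted p = 7.06e-09) at 8 weeks in low corn oil males. Rassf4, a Ras-association protein, was at 3.04, 22.6 and 31.6 FPKM, and Chrna4, a nicotinic receptor subunit, at 3.26, 12.9 and 23.6 FPKM. Mrap2, a melanocortin receptor accessory protein, was at 0.0297, 1.13 and 1.4 FPKM.

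On the lower side, Dmbt1, a mucin-like glycoprotein, was at 5.97 FPKM at 2 weeks, 0.00944 in the high corn oil group and 0.0428 at 4 to 8 weeks. No other group of the series exceeded 0.699 FPKM, so the high value was in the 2-week vehicle males. The authors' deposited table gave its TCPOBOP fold at 2 weeks as -39.5 with an adjusted p of 0.0317. C1rb, a paralog of complement C1r, was at 8.04, 1.36 and 0.790 FPKM. Prss22, a serine protease, was at 7.66 FPKM at 2 weeks and listed at 0 in both the high corn oil and the 4 to 8 week groups. Cwc22, a splicing factor, stood out on the higher side with 18.3, 9.04 and 83.6 FPKM, but its TCPOBOP fold of -3.58 in the later groups had an adjusted p of 0.549 in the authors' deposited table.

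The set code G186 is carried by 2 groups, the 4 to 8 week vehicle and the 8-week low corn oil TCPOBOP males, and some genes stood apart in both. Both G186 groups stood above all 6 other groups in 134 of the 370 higher genes (36.2%), against 9.05% of all 10615, and below all 6 in 54 of the 223 lower genes (24.2%), against 6.73% of all. The rule for higher and lower genes used the 4 to 8 week group, so these shares are descriptions. By a margin of at least 2-fold, and with Mir and Snor names left out, 3 genes did so, BC021614 above and Fgl1 and Mrpl18 below. BC021614 stood at 115 and 98.5 FPKM in the vehicle and TCPOBOP groups of G186 and between 11.6 and 26.7 FPKM in the 6 others. Fgl1, a fibrinogen-like hepatokine, was at 12.9 and 15.1 FPKM in G186 and between 33.5 and 139 FPKM elsewhere. Mrpl18, a mitochondrial ribosomal protein, was at 13.6 and 8.90 FPKM in G186 and between 28.5 and 73.9 FPKM elsewhere. The high corn oil mice stood near the 2-week mice for BC021614, at 11.7 and 11.6 FPKM, and for Mrpl18, at 48.1 and 49.7 FPKM. For Fgl1 they stood above them, at 130 and 39.9 FPKM. The cause of these differences was not tested.

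Several lists held few or no genes past 2-fold on the deposited scale. None of 22 nuclear receptors (median 0.20), 15 drug transporters (median -0.40), 6 compared cell cycle genes (median 0.33) or 15 Nrf2 targets was past it. After rescaling 1 nuclear receptor, 2 cell cycle genes and 2 Nrf2 targets were 2-fold higher, and the Nrf2 median of -0.09 turned to 0.20. For all genes the rescaled median was 0.33, with 8.82% higher and 0.75% lower. Conjugation enzymes had 2 of 23 lower, Gstt1 and Ugt1a9, and a median of -0.28 that turned to 0.01 after rescaling, when 3 were higher and none lower. Thyroid-responsive genes had 2 higher, Thrsp and Bcl3, and 2 lower, Serpina7 and Ttr, of 13, and the median of -0.27 turned to 0.01 after rescaling. Oncofetal genes had Meg3 higher and Krt19 lower of 7, and the median of -0.26 turned to 0.02 after rescaling. Heme and iron genes had 1 higher and 3 lower of 24 with a median of 0.03, and 3 higher and 1 lower after rescaling. Id1, a target of BMP signalling, was the higher one at 3.41 and 8.07 FPKM, and Alas1, Trf and Hamp2 were the lower ones. The median of the pancreas, fat, muscle and gallbladder list rested on 2 genes and went from -0.17 to 0.11 after rescaling.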

How the data were processed

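Polyadenylated nuclear RNA from frozen liver was sequenced as stranded libraries, per the labels. Reads were aligned to mm9 with TopHat2 2.0.13 and counted with featureCounts 1.4.6-p5, and edgeR is named without a version, per the submitters' processing notes. Per the file headers, reads over the whole gene body were counted. The use of strand and the pooling of replicates are not given in the sources used here. FPKM were deposited by the authors, 1 value per group. Fold changes are a signed score of the authors, positive for TCPOBOP over vehicle and the negative inverse otherwise, and the p-value is the authors' edgeR value, read here as adjusted because many values are tied and at 1.

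From these, log2 ratios were computed with Python 3.11.15 and pandas 2.3.3 after adding 0.1 FPKM, for genes of at least 1 FPKM in either group. Higher and lower mean at least 2-fold. The planned edgeR and limma fits need values per library and were not made. The computation of counts past 2-fold and of log2 ratios was checked on simulated data with exact fold changes and no noise. That check says nothing about how many genes pass 2-fold through noise. The named genes are the 15 largest differences in each direction, the 10 largest at 20 FPKM or more, up to 4 members of each of 42 lists, and always Cyp2b10, Nr1i3, Cyp7a1, the clock genes and the X and Y linked genes. The families and all further genes were picked after seeing their values. The groups, lists and rules were chosen with earlier results of these data known. Alternatives varied the pseudocount, the FPKM minimum, the scaling, the small RNA names and the comparison group. No interval or detection floor is given, since depth is unknown. The values of some list members are not reported here, though counts and medians include them.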

Additional observations from a re-analysis of the deposited data

How the results depend on the processing

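The counts of 370 higher and 223 lower genes depended on the treatment of low values and on scaling. A pseudocount of 1 FPKM gave 168 higher and 141 lower, and no minimum gave 586 and 344. A minimum of 5 FPKM gave 177 higher, a common FPKM sum gave 936 higher and 80 lower, and the high corn oil group as denominator gave 221 higher. The share of higher among all such genes was 62.4% as reported, 92.1% with a common sum, 75.6% with that sum taken without the 27 most abundant genes (a setting added after seeing the data) and 50.9% with the high corn oil denominator. The other settings stayed within 1.5 times of the reported counts. Of 142 named genes with a value, 4 changed sign with a common sum, also without the most abundant genes. These were Cyp2b10, Eif2s3y, Hlf and Nfil3, all within 2-fold, and none changed sign under the pseudocounts or the centring. The limit of 2-fold was no longer reached by 20 with a pseudocount of 1, by 26 with a common sum and by 10 with the sum without the most abundant genes. With a common sum of all genes, 10 other named genes newly reached it. The causes were not tested. No paired analysis was possible because the table holds no values per library, and for the same reason no replicate could be left out. Depth limits cannot be stated.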
